A study of Mus musculus with 11 samples.

Results

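Acod1 and 8 enzyme genes of the tricarboxylic acid (TCA) cycle, Cs, Idh1, Idh2, Idh3a, Ogdh, Sdha, Sdhb and Fh1, were followed through microglial cells treated with fragments of apolipoprotein E. The 9 genes were taken by symbol out of the 36529 genes listed in the count tables, and all 9 were found. They were named with earlier results of these data in view, among them the rise of Acod1 under both fragments, so their changes with treatment are given as a description, and counts of members past a threshold stand beside those of all genes with nothing read from them. The cells were BV2, a transformed mouse microglial line labelled with the strain C57BL/6. In a first experiment, 3 samples (group ApoE4) received nApoE4, the amino-terminal fragment of ApoE4 spanning residues 1 to 151, at 25 µg/mL for 5 h, and 3 samples (ControlA) were untreated. In a second, 2 samples (ApoE3) received the matching fragment of ApoE3, nApoE3, at the same dose and time, and 3 (ControlB) were untreated. The labels name a phosphate-buffered saline vehicle while the study's methods describe conditioned medium for the controls, and which of these the untreated cells received is not known. Fragment and experiment cannot be told apart.

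The TCA cycle burns acetyl groups in the mitochondrion. Citrate synthase makes citrate, which becomes isocitrate by way of cis-aconitate, and dehydrogenases then pass the carbon on through 2-oxoglutarate, succinate, fumarate and malate. Acod1, once called Irg1, encodes cis-aconitate decarboxylase, which draws cis-aconitate away from the cycle and makes itaconate. In macrophages and microglia the gene is nearly silent at rest and is switched on by inflammatory signals, and itaconate is known to inhibit succinate dehydrogenase. RNA levels say nothing directly of enzyme amount or flux.

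The samples held 39732710 to 44162511 reads on genes in the first experiment and 55809688 to 69768666 in the second. Levels are given as CPM, which relates the reads of a gene to the depth of its sample after TMM scaling over the 11 samples. Of 15 markers of microglia and macrophages, 10 were at 1 CPM or more in every sample, among them Csf1r, Cd68 and Spi1, while P2ry12 and Sall1, 2 markers of resting brain microglia, had at most 3 counts in every sample. None of the 5 markers each of astrocytes, neurons and lymphocytes reached 1 CPM in every sample. Of the 5 oligodendrocyte and 5 endothelial markers, 2 and 1 (Kdr) did. The untreated groups also differed from each other, with Trem2 at a mean of 21.5 CPM in ControlA and 0.722 CPM in ControlB. Replicates varied more in the first experiment, where the common biological coefficient of variation was 0.0838 against 0.0262 in the second. ControlA replicate 2 held the highest level of its group for 7 of the 8 cycle enzymes listed above and for all 13 other enzymes of the cycle, so values without it are given below.

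The start of Acod1 lies at position 103047012 on the plus strand of mouse chromosome 14 (GRCm38.p6), and the gene runs to 103056573 with 5 merged exons of 2623 bp in all. The 250 bases before the start are shown for Acod1, the gene with the far larger change, and for Sdha, as the cycle enzyme with the most NRF1 matches. Capitals mark matches to the motifs that were searched, and the sequences are from RefSeq on GRCm38.p6, printed 5′ to 3′ along the strand of the gene.
Acod1 promoter, chr14:103046762-103047011, plus strand: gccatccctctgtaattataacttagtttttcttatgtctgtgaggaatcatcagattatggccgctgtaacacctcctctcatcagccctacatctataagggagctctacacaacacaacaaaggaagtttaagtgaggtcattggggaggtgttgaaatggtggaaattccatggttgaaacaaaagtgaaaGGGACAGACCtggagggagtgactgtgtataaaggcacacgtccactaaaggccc
Sdha promoter, chr13:74350241-74350490, minus strand: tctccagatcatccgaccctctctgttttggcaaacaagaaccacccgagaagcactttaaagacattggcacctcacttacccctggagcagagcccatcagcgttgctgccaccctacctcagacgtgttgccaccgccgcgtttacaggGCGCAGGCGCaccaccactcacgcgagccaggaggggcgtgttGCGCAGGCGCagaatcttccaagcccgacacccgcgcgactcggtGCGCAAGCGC

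The Acod1 window was poor in CpG. It held 2 CpG dinucleotides at 44.4% G and C, while the median of 32851 mouse promoter windows was 6 CpG at 52.4%, and 29.0% of them held as few CpG as Acod1. The 13 windows of the 7 other genes with an entry held 9 to 35 CpG at 50.0 to 74.0% G and C. On both strands, 7 motifs were searched. The NF-kB letters, GGG and CC with any 5 bases between them, matched once in the Acod1 window, 55 to 46 bases before the start, but 45.8% of all windows hold them too, as do 7 of the 13 other windows (1 each of Cs, Idh2, Ogdh, Sdhb and Fh1 and both of Idh1). The NRF1 letters, GCGCA and GCGC around any 1 base, matched 3 times in the Sdha window and in no other window of the set, against 3.74% of all windows. The E-box letters CACGTG, found in 6.02% of all windows, matched in 3 of the 6 Ogdh windows, at 2 places, since 2 of the 3 windows overlap and share the match. The letters of ISRE (GAAA, any 2 bases and GAAA, in 2.98% of all windows), GAS (TTCNNNGAA, 7.02%), AP-1 (TGANTCA, 6.75%) and ETS (CCGGAAG, 6.91%) matched in none of the 14 windows.

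Acod1 was low in every untreated sample and among the most abundant transcripts in every treated one. It stood at 8.90, 6.98 and 8.04 CPM in ControlA and at 2600.4, 2587 and 2535 CPM in ApoE4. In the second experiment it stood at 6.83, 7.71 and 9.60 CPM in ControlB and at 1566 and 1519.6 CPM in ApoE3. Treated and untreated samples were far apart, the 2 untreated groups overlapped, and the 3 ApoE4 samples all lay above the 2 ApoE3 samples.

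**Figure D1:**
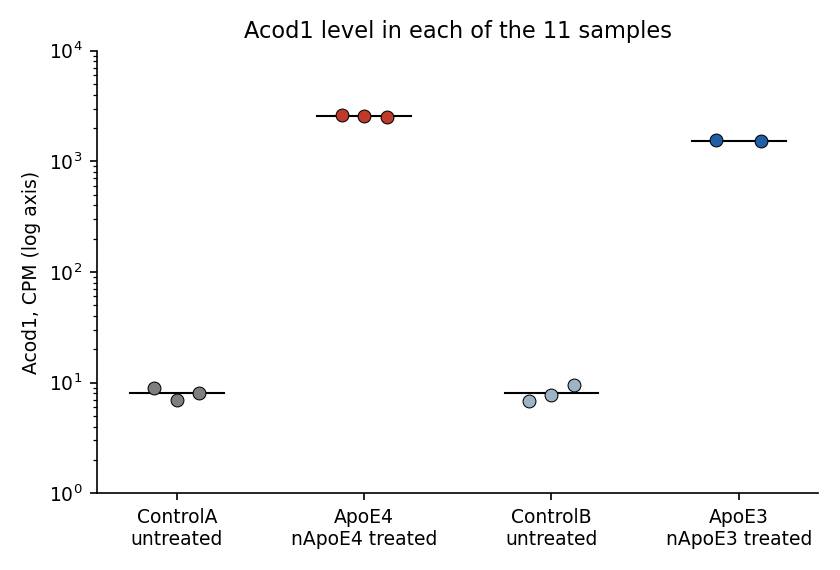
Acod1 level in CPM (log axis) in each of the 11 samples by group. Points are samples and horizontal lines group means. The untreated samples lie between 6.83 and 9.60 CPM, the ApoE3 samples at 1519.6 and 1566 CPM and the ApoE4 samples between 2535 and 2600.4 CPM.

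These levels rested on 313 to 541 reads per untreated sample and 85792 to 111500 per treated sample. The fitted log2 fold change was 8.34 ± 0.12 (approximate standard error), or 324-fold, with nApoE4 and 7.59 ± 0.065, or 193-fold, with nApoE3. The log2 difference of the 2 responses was 0.75 ± 0.15, given as a description because it was known when the gene was chosen. The untreated levels of the 2 experiments, 7.97 ± 0.961 CPM in ControlA and 8.04 ± 1.42 CPM in ControlB (SD, n = 3 each), were not told apart by the edgeR quasi-likelihood test (log2 difference -0.0059, 95% interval -0.29 to 0.28, adjusted p = 0.974). Where labels do not say that replicates were separate cultures, as here, p-values measure the spread between these samples only, which may be technical.

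To set Acod1 beside the cycle enzymes, levels were divided by the merged exon length of each gene. On this scale, Acod1 was at 3.04 ± 0.366 CPM per kb in ControlA, 981 ± 13.3 in ApoE4, 3.07 ± 0.540 in ControlB and 588 ± 12.6 in ApoE3 (mean ± SD). Among 20268 genes with a length and a count, its rank by CPM per kb was 7771 to 8187 in ControlA and 7496 to 8197 in ControlB, and it was 19 to 22 in ApoE4 and 36 to 37 in ApoE3. The ratio of the levels per kb, Acod1 over Idh3a, was 0.0985 ± 0.0174 in ControlA and 34.5 ± 1.53 in ApoE4, and 0.0549 ± 0.00992 in ControlB and 10.9 ± 0.129 in ApoE3. Acod1 transcript thus lay below that of Idh3a in all 6 untreated samples and above it in all 5 treated samples. It came to 0.661 ± 0.0264 of the summed level per kb of all 21 cycle enzyme genes in ApoE4 and to 0.361 ± 0.00296 in ApoE3, and was at most 0.00216 of that sum in any untreated sample.

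**Figure D2:**
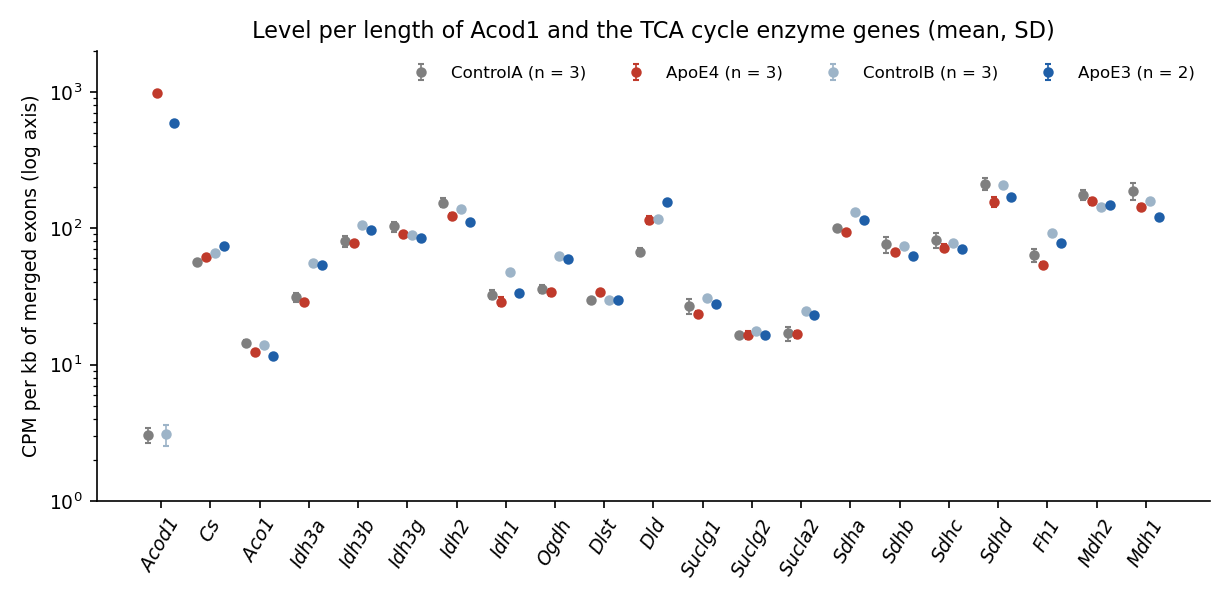
Level of Acod1 and 20 TCA cycle enzyme genes in CPM per kb of merged exons (log axis) by group. Points are means and bars the SD over samples. Acod1 rises from 3.04 and 3.07 to 981 and 588, above every cycle enzyme gene in the treated groups, while the enzyme genes shift little on this axis.

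The cycle enzymes moved little beside Acod1. Citrate synthase, Cs, was the member that stood higher with both fragments. It was at 316, 335 and 325 CPM in ControlA and at 370.3, 356 and 345 CPM in ApoE4. In the second experiment it was at 386, 376 and 379 CPM in ControlB and at 425 and 424 CPM in ApoE3. Every treated sample was above every untreated sample of its experiment, at a log2 fold change of 0.14 ± 0.061 with nApoE4 and 0.15 ± 0.021 with nApoE3. Under scaling by total counts these values were 0.050 and 0.020, the same sign but smaller.

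The isocitrate dehydrogenase genes among the members are Idh3a, Idh2 and Idh1. Idh3a, the catalytic subunit of the NAD-linked enzyme of the cycle, was at 153, 171 and 149 CPM in ControlA and at 147, 139 and 148 CPM in ApoE4. It was at 286, 282 and 282 CPM in ControlB and at 276 and 272 CPM in ApoE3. All treated samples were below the untreated ones, by a narrow margin, at a log2 fold change of -0.12 ± 0.067 with nApoE4 and -0.056 ± 0.021 with nApoE3.

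Idh2, the NADP-linked form of the mitochondrion, stood further apart. It was at 385, 432 and 377 CPM in ControlA and at 336, 302 and 316 CPM in ApoE4. It was at 357, 358 and 361 CPM in ControlB and at 295 and 279 CPM in ApoE3. Every treated sample was lower than every untreated one, 1.25-fold with nApoE4 (log2 fold change -0.32 ± 0.074) and 1.26-fold with nApoE3 (log2 fold change -0.33 ± 0.025).

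Idh1 is the NADP-linked form of the cytosol and peroxisomes. It was at 88.1, 97.6 and 84.3 CPM in ControlA and at 82.3, 73.1 and 84.6 CPM in ApoE4, so that these groups overlapped. It was at 131, 136 and 132 CPM in ControlB and at 91.4 and 95.3 CPM in ApoE3, with both treated samples far below. The log2 fold change was -0.16 ± 0.077 with nApoE4 and -0.52 ± 0.030, or 1.43-fold lower, with nApoE3.

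Ogdh encodes the subunit of the 2-oxoglutarate dehydrogenase complex that decarboxylates 2-oxoglutarate. It was at 190.2, 186 and 209.6 CPM in ControlA and at 182, 196 and 174 CPM in ApoE4, which overlapped. It was at 344, 343 and 341 CPM in ControlB and at 320.4 and 325 CPM in ApoE3, which did not. The log2 fold change was -0.080 ± 0.072 with nApoE4 and -0.095 ± 0.020 with nApoE3.

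Sdha and Sdhb are the flavoprotein and the iron-sulfur subunit of succinate dehydrogenase, the enzyme itaconate inhibits. Sdha was at 394, 433 and 406 CPM in ControlA and 395, 378 and 377 CPM in ApoE4, and at 541, 541 and 542 CPM in ControlB and 476 and 464 CPM in ApoE3. Sdhb was at 160.5, 195 and 155 CPM in ControlA and 150.1, 146 and 156 CPM in ApoE4, and at 163, 164 and 171 CPM in ControlB and 143 and 135 CPM in ApoE3. For both genes 1 ApoE4 sample lay within the range of ControlA, while both ApoE3 samples lay below all of ControlB. The log2 fold changes with nApoE4 were -0.094 ± 0.063 for Sdha and -0.17 ± 0.087 for Sdhb. With nApoE3 they were -0.21 ± 0.020 for Sdha and -0.26 ± 0.032 for Sdhb.

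Fh1, fumarase, was at 199, 242 and 207 CPM in ControlA and at 192, 175 and 182 CPM in ApoE4. It was at 314, 309 and 321 CPM in ControlB and at 268 and 258 CPM in ApoE3. Every treated sample was lower, at a log2 fold change of -0.23 ± 0.080 with nApoE4 and -0.27 ± 0.025 with nApoE3.

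Over the 8 enzymes, the direction was the same under both fragments for all 8, lower for 7 and higher for Cs. With nApoE4 the groups did not overlap for 4 of 8, 1 higher and 3 lower, where 63.6% of all genes tested did not overlap (31.5% higher and 32.1% lower). With nApoE3 they did not overlap for 8 of 8, 1 higher and 7 lower, against 77.6% of all genes (38.6% higher and 39.0% lower). At an adjusted p under 0.05, the nApoE4 comparison called 2 of the 8 lower, Idh2 and Fh1, against 57.2% of all genes (28.6% lower). The nApoE3 comparison called 8 of 8, 1 higher and 7 lower, against 67.7% of all genes (33.1% higher and 34.6% lower). Nothing is read from these shares, since the genes were chosen with both contrasts known. The median log2 fold change of the 8 was -0.14 with nApoE4 and -0.24 with nApoE3, where the medians of all genes were 0.0013 and -0.0026. The approximate standard errors had a median of 0.073 in the first experiment and 0.023 in the second.

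**Figure D3:**
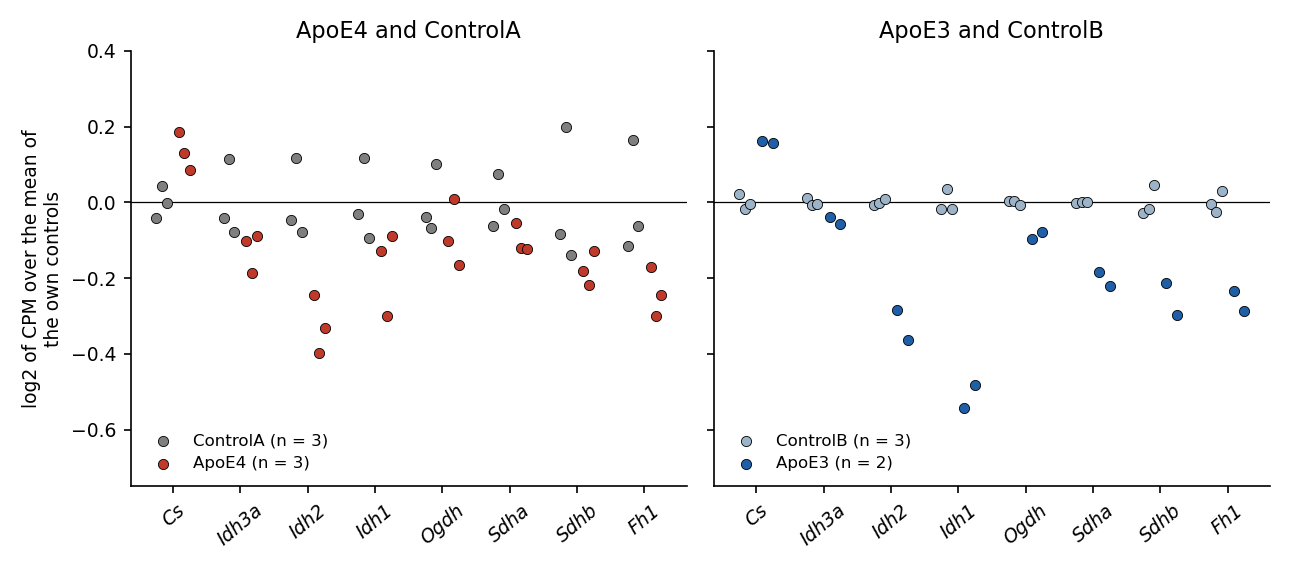
Level of each of the 8 cycle enzymes in each sample, as the log2 of CPM over the mean of the untreated samples of the same experiment, with ApoE4 and ControlA on the left and ApoE3 and ControlB on the right. Points are samples. In ControlA the grey points spread widely, with replicate 2 the highest for 7 of the 8 genes, while the ControlB points lie close to 0 and clear of the ApoE3 points.

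Without ControlA replicate 2, the median log2 fold change of the 8 with nApoE4 was -0.087. In that fit 3 of 8 were called, beside 8827 of all 14561 genes tested, and nothing is read from this count. The log2 fold change was then nearer to 0 for 6 of the 8, at -0.26 for Idh2, -0.15 for Fh1, -0.11 for Idh1, -0.066 for Sdhb, -0.065 for Idh3a and -0.061 for Sdha. It was further from 0 for Ogdh, at -0.12, and for Cs, at 0.16, and no sign turned. Scaling by total counts instead of TMM lowered the median of all genes to -0.089 with nApoE4 and -0.13 with nApoE3, and that of the 8 enzymes to -0.23 and -0.37, without turning the sign of any of them. The split of all genes called moved from 4067 higher and 4078 lower to 3316 and 4993 with nApoE4, and from 4907 and 5127 to 3595 and 6783 with nApoE3. In these bulk samples, fewer cells of a type and less RNA of a gene per cell cannot be told apart. The summed level of the 5 endothelial markers moved with treatment, from 150.3–177 CPM in ControlA to 62.8–72.0 in ApoE4 and from 64.2–66.5 in ControlB to 43.4–48.1 in ApoE3, with Cldn5 at no more than 3 counts in every sample. Kdr made up nearly all of that sum, at means of 166 and 65.6 CPM in ControlA and ApoE4 and 63.6 and 43.7 CPM in ControlB and ApoE3, while Cdh5 went from 0.637 to 0.733 CPM with nApoE4 and Pecam1 from 0.953 to 1.51 CPM with nApoE3. That of the 5 astrocyte markers went from 1.36–1.56 CPM to 6.88–7.89 with nApoE4 and from 1.45–1.92 to 5.88–6.02 with nApoE3, with Aqp4 at no more than 3 counts, and that of the 5 neuron markers from 1.97–2.51 to 5.32–6.39 with nApoE4 and from 1.15–1.52 to at most 1.51 with nApoE3. Most of the astrocyte sum was Slc1a2, at 6.43 CPM in ApoE4 and 4.37 CPM in ApoE3, and most of the neuron sum was Tubb3, at 5.61 CPM in ApoE4. That of the 15 microglia and macrophage markers was 3836–4239 CPM in ControlA, 4078–4156 in ApoE4, 2815–2935 in ControlB and 3472–3491 in ApoE3. Their part in the enzyme levels was not tested.

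Whether the 2 responses differed in size was tested across all 11 samples, as nApoE4 minus nApoE3. Both contrasts in this difference were known when the 8 enzymes were chosen, so their p-values are a description and nothing is read from them. Of the 8 enzymes only Idh1 passed this edgeR test, with a log2 difference of 0.34 ± 0.095 (adjusted p = 0.0163), against 28.3% of all genes called (14.4% above and 13.9% below 0). The log2 fold change of Idh1 was nearer to 0 with nApoE4 than with nApoE3. The call was lost without ApoE3 replicate 1 (adjusted p = 0.0872) and under the replicate block (0.115). For the 7 others the log2 difference lay between -0.077 and 0.10, their 95% intervals reached from -0.23 to 0.29 at the widest, and the smallest adjusted p was 0.288. For Idh2, Ogdh and Fh1 the estimates were 0.00026, 0.0030 and 0.022. Because each fragment was tested in its own experiment, the difference is one of fragment and experiment together.

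Most of these enzymes stood further apart between the untreated cells of the 2 experiments than between treated and untreated cells. The quasi-likelihood test of ControlB against ControlA called 7 of the 8, against 69.3% of all genes tested, with 6 higher (34.4% of all genes) and 1 lower (34.9%) in ControlB. The samples of the untreated groups did not overlap for 7 of the 8, against 74.1% of all genes (38.2% higher and 36.0% lower). Of the 8, Idh3a and Ogdh stood furthest apart. Idh3a was higher by 0.83 on the log2 scale (1.78-fold, adjusted p = 6.4e-06) and Ogdh by 0.80 (1.74-fold, adjusted p = 5.4e-06). The other subunits of these complexes were spread, at 0.38 for Idh3b, -0.22 for Idh3g, 0.79 for Dld and -0.014 for Dlst. Idh1 was higher by 0.55 (adjusted p = 7.7e-05), Fh1 by 0.53 (adjusted p = 0.00027), Sdha by 0.38 (adjusted p = 0.00016) and Cs by 0.21 (adjusted p = 0.0023). Idh2 was lower, at -0.16 (adjusted p = 0.0325), a call lost in 6 of 14 alternatives, among them each fit that left out 1 ControlB sample (adjusted p = 0.0967 to 0.125) and the fit without ControlA replicate 1 (0.0563). Sdhb, at -0.051 (95% interval -0.22 to 0.12, adjusted p = 0.614), did not pass, and turned to 0.062 without ControlA replicate 2. For 6 of the 8 enzymes, all but Idh2 and Sdhb, this difference between untreated groups was larger in size than the change with either fragment. The Acod1 samples of the 2 untreated groups overlapped.

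The levels in the 4 groups, ordered from high to low, followed the experiment before the treatment for 5 enzymes. Idh3a, Ogdh, Sdha and Fh1 ran ControlB, ApoE3, ControlA, ApoE4, with means of 283, 274, 158 and 145 CPM for Idh3a and 315, 263, 216 and 183 CPM for Fh1. For Cs the order was ApoE3, ControlB, ApoE4 and ControlA, at 425, 381, 357 and 325 CPM. Idh2 and Sdhb ran by treatment instead, with ControlA and ControlB (398 and 359 CPM for Idh2, 170.2 and 166 CPM for Sdhb) above ApoE4 and ApoE3 (318 and 287 CPM, 151 and 139 CPM). Idh1 was highest in ControlB at 133 CPM, and ApoE3 (93.4 ± 2.81 CPM) lay within the spread of ControlA (90.0 ± 6.86 CPM). Among neighbours in these orders, the samples of ControlA and ApoE4 overlapped for Ogdh, Sdha and Idh1, and those of ControlA and ControlB for Sdhb.

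The rest of the cycle was read in 13 further enzyme genes, which hold the other subunits and isoforms of these steps and the steps of the cycle that the members do not cover. With nApoE4, edgeR called 2 of the 13 higher and 3 lower, and with nApoE3, 1 higher and 10 lower. The median log2 fold change of the 13 was -0.15 with nApoE4 and -0.13 with nApoE3. The share called, 5 of 13 and 11 of 13, compares with 57.2% and 67.7% of all genes. Over all 21 cycle genes, 16 were below 0 under both fragments and 3 above 0 under both.

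**Figure D4:**
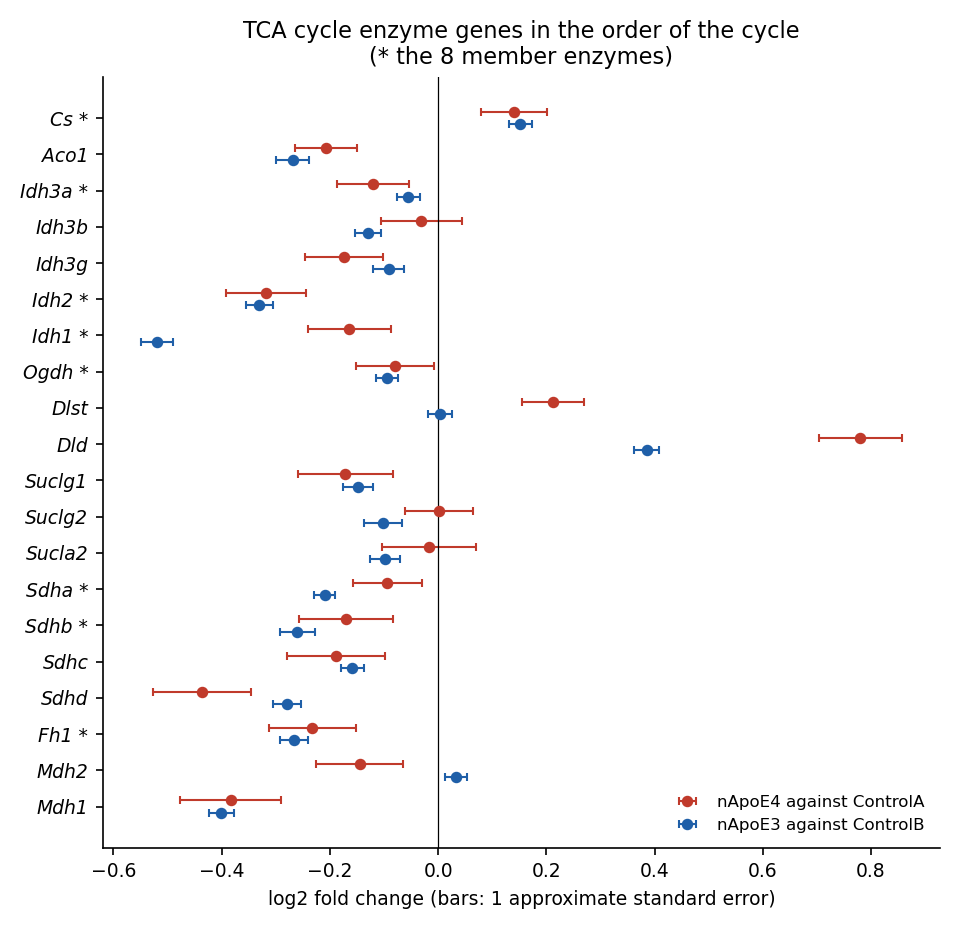
Log2 fold change of 20 TCA cycle enzyme genes in the order of the cycle, for nApoE4 against ControlA (red) and nApoE3 against ControlB (blue). Points are fitted values and bars 1 approximate standard error. Most points lie between 0 and -0.5, with Dld to the right at 0.78 and 0.39, Cs above 0 for both fragments, and longer bars for nApoE4.

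Dld stood apart from the other cycle genes. It encodes dihydrolipoamide dehydrogenase, the subunit that the 2-oxoglutarate, pyruvate and branched-chain dehydrogenase complexes and the glycine cleavage system share. It was at 238, 267 and 240.0 CPM in ControlA and 431, 392 and 452 CPM in ApoE4, and at 426, 445 and 429 CPM in ControlB and 572 and 564 CPM in ApoE3. Every treated sample was above its controls, and the untreated ControlB samples already stood where the ApoE4 samples ended. Dld rose by 0.78 ± 0.076 on the log2 scale with nApoE4 (adjusted p = 1.7e-05) and by 0.39 ± 0.023 with nApoE3 (adjusted p = 1.6e-08). The responses differed by 0.38 ± 0.089 (adjusted p = 0.00599), a call lost only under the replicate block (adjusted p = 0.0809).

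Dlst, the succinyltransferase core of the same 2-oxoglutarate complex, was at 278, 290.1 and 281 CPM in ControlA and 335, 318 and 326 CPM in ApoE4, with no overlap. It was at 281, 283 and 287 CPM in ControlB and 286 and 285 CPM in ApoE3, which overlapped. Dlst rose by 0.21 ± 0.058 with nApoE4 (adjusted p = 0.0105). That call was lost without ControlA replicate 1 or ApoE4 replicate 1 (adjusted p = 0.0589 each), under total counts (0.0544) and under the replicate block (0.0673). With nApoE3 the log2 fold change of Dlst was 0.0033 ± 0.022 (adjusted p = 0.903). The 3 subunits of the complex, with Ogdh the third, thus gave 3 different values with nApoE4. Their summed level per kb was 133 ± 4.27 in ControlA and 183 ± 6.65 in ApoE4, and 210.0 ± 2.81 in ControlB and 243 ± 1.14 in ApoE3 (CPM per kb, mean ± SD).

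The other 2 subunits of succinate dehydrogenase, Sdhc and Sdhd, anchor it in the inner membrane. Sdhd fell by 0.44 ± 0.090 on the log2 scale with nApoE4 (adjusted p = 0.00238) and by 0.28 ± 0.026 with nApoE3 (adjusted p = 9.7e-07). Sdhc fell by 0.16 ± 0.022 with nApoE3 (adjusted p = 3.6e-05) and was at -0.19 ± 0.091 with nApoE4, which did not pass (adjusted p = 0.104). The summed level per kb of the 4 subunits was 470.2 ± 47.4 in ControlA and 389 ± 20.3 in ApoE4, and 489 ± 6.67 in ControlB and 416 ± 8.78 in ApoE3 (CPM per kb). All treated samples, 366.1 to 406 in ApoE4 and 410.3 to 423 in ApoE3, were below the untreated samples of their experiment, which began at 442 and 484.

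Mdh1 and Mdh2 are the malate dehydrogenases of the cytosol and the mitochondrion. Mdh1 fell by 0.38 ± 0.094 with nApoE4 (adjusted p = 0.00616) and by 0.40 ± 0.023 with nApoE3 (adjusted p = 1.1e-08). Mdh2, the form that works in the cycle, was at -0.15 ± 0.080 with nApoE4 (adjusted p = 0.149) and at 0.032 ± 0.021 with nApoE3 (adjusted p = 0.185). The cytosolic Aco1, also an iron-regulatory protein, fell under both, by 0.21 ± 0.057 (adjusted p = 0.0117) and 0.27 ± 0.030 (adjusted p = 6.3e-06). Idh3b, Idh3g, Suclg1, Suclg2 and Sucla2 fell with nApoE3, by 0.091 to 0.15 on the log2 scale, and did not pass with nApoE4. The nApoE3 calls of Idh3g (adjusted p = 0.0578), Suclg2 (0.214) and Sucla2 (0.0624) were lost without ApoE3 replicate 2, that of Idh3g without ApoE3 replicate 1 (0.0514) and that of Suclg2 without ControlB replicate 3 (0.0640). Between the untreated groups, 4 of the 13 were higher in ControlB (among them Dld, Sucla2 and Idh3b) and 3 lower (Mdh2, Mdh1 and Idh3g), against 34.4% and 34.9% of all genes. The Mdh1 call was lost in each fit that left out 1 ControlB sample (adjusted p = 0.0629 to 0.0938) and that of Idh3g in 2 of these fits (0.0747 and 0.0786).

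Pathways that feed and drain the cycle were read from 6 further lists, and the shares of all genes called are given beside their counts, 28.6% higher and 28.6% lower with nApoE4 and 33.1% higher and 34.6% lower with nApoE3. Of the 4 assembly factors of succinate dehydrogenase, Sdhaf1 and Sdhaf3 rose with nApoE4 and Sdhaf1 with nApoE3, and none fell. Sdhaf3 rose by 0.35 ± 0.11 (adjusted p = 0.0193), a call lost under total counts (0.0576) and without ControlA replicate 1 or 3 or ApoE4 replicate 2 or 3 (0.0531 to 0.0761). Sdhaf1, which helps place iron-sulfur clusters in Sdhb, went from 25.1 ± 3.48 to 57.6 ± 5.20 CPM with nApoE4 (log2 fold change 1.20 ± 0.10, adjusted p = 7.2e-06). With nApoE3 it went from 23.4 ± 0.878 to 26.4 ± 1.51 CPM (log2 fold change 0.17 ± 0.048, adjusted p = 0.00804), a call lost under total counts (adjusted p = 0.509) and without ApoE3 replicate 1 (0.109). The 2 responses of Sdhaf1 differed by 1.02 ± 0.14 (adjusted p = 0.000112).

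At the entry of pyruvate, 3 of 13 genes tested rose and 4 fell with nApoE4, and 1 rose and 10 fell with nApoE3, where 28.6% of all genes went each way with nApoE4 and 33.1% rose and 34.6% fell with nApoE3. Pdk1 and Pdk2, kinases that switch pyruvate dehydrogenase off, both fell, Pdk1 from 304 ± 16.6 to 133 ± 2.89 CPM with nApoE4 and from 169 ± 1.15 to 111 ± 11.1 CPM with nApoE3. Their log2 fold changes with nApoE4 were -1.18 ± 0.062 and -1.36 ± 0.18, and with nApoE3 -0.62 for Pdk1 and -1.77 ± 0.26 for Pdk2. Pdk2 was low throughout, at means of 2.73 and 1.06 CPM in ControlA and ApoE4. It was at 1.07 and 0.314 CPM in ControlB and ApoE3, with 18 counts in each ApoE3 sample. Pdp1, a phosphatase that switches the same complex on, also fell, at -0.74 ± 0.092 and -1.24 ± 0.099. Pcx, pyruvate carboxylase, which makes oxaloacetate for the cycle, rose by 0.34 with nApoE4 and 0.87 ± 0.036 with nApoE3, from 54.0 ± 3.56 to 68.3 ± 1.75 CPM and from 31.9 ± 0.188 to 58.5 ± 2.55 CPM.

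In the list of glutamine and amino acid supply, 3 of 12 genes rose and 6 fell with nApoE4, and 2 rose and 8 fell with nApoE3 (all genes, 28.6% each way and then 33.1% and 34.6%). Glul, glutamine synthetase, fell from 166 ± 6.22 to 84.3 ± 4.57 CPM with nApoE4 (log2 fold change -0.97 ± 0.062, adjusted p = 8.4e-07) and from 243 ± 4.14 to 111 ± 0.670 CPM with nApoE3 (log2 fold change -1.14 ± 0.025, adjusted p = 1.2e-12). Gpt2, the mitochondrial alanine aminotransferase, rose by 0.80 ± 0.055 with nApoE4 (adjusted p = 1.5e-06) and was at -0.019 with nApoE3 (adjusted p = 0.659). Pck2, which turns oxaloacetate into phosphoenolpyruvate in the mitochondrion, fell by 0.81 ± 0.027 with nApoE3 (adjusted p = 6.0e-11), and its means with nApoE4 were 169 ± 11.8 and 188 ± 3.93 CPM. The responses of Gpt2 and Pck2 differed by 0.80 and 0.96 (adjusted p = 2.6e-06 and 1.5e-06).

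Among the carriers of citrate, malate and dicarboxylates, none of 6 genes tested rose and 4 fell with nApoE4, and 1 of 7 rose and 4 fell with nApoE3, beside the same 28.6% each way and 33.1% and 34.6% of all genes. Slc25a10, the mitochondrial dicarboxylate carrier, fell by 0.97 ± 0.064 and 0.50 ± 0.031. Slc13a3, a plasma membrane carrier of dicarboxylates, fell by 0.97 ± 0.094 and 1.32 ± 0.068, from 12.3 ± 1.06 to 6.26 ± 0.314 CPM and from 11.1 ± 0.222 to 4.46 ± 0.0408 CPM. One of the 4 calls with nApoE3, Slc25a11, rested on counts of 27 to 1183 in ControlB and 16 to 23 in ApoE3, groups that overlapped. Its log2 fold change of -4.29 ± 1.59 (edgeR adjusted p = 0.0308) became -0.36 without ControlB replicate 2 (adjusted p = 0.379). The call of Slc25a11 thus hung on 1 untreated sample, and it was also lost in DESeq2. Of the genes that use citrate and malate outside the cycle, 2 of 6 rose and 3 fell with nApoE4, and 2 of 8 rose and 3 fell with nApoE3, beside those same shares. Me1, the cytosolic malic enzyme, rose by 0.62 ± 0.058 and 0.53 ± 0.030, while Acly, ATP citrate lyase, was at 0.029 and -0.028 and did not pass (adjusted p = 0.722 and 0.271).

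In the list of genes that handle itaconate or break it down, 3 of 8 tested were called higher and 4 lower with nApoE4, and 3 higher and 5 lower with nApoE3, where 57.2% and 67.7% of all genes were called, split nearly evenly. Rab32, a small GTPase known to deliver itaconate to bacteria-containing vacuoles, rose from 80.6 ± 7.72 to 210.0 ± 3.36 CPM with nApoE4 (log2 fold change 1.39 ± 0.074, adjusted p = 2.3e-07) and from 178 ± 4.54 to 254 ± 5.47 CPM with nApoE3 (0.51 ± 0.027, adjusted p = 5.2e-09). Sugct, whose product can load itaconate onto coenzyme A, rose by 0.89 ± 0.19 and 1.72 ± 0.31 from levels under 1 CPM. Clybl, which splits citramalyl-CoA on the way from itaconate to pyruvate, fell by 0.55 ± 0.16 (adjusted p = 0.0130) and 0.40 ± 0.15 (adjusted p = 0.0331). The methylmalonyl-CoA genes Mmut and Mcee fell under both fragments, Mmut by 0.27 and 0.41 and Mcee by 0.46 and 0.41, while Mmaa rose by 0.91 ± 0.084 with nApoE4 and 0.40 with nApoE3.

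Around Acod1, the neighbouring genes differed widely in their change. Gm41235, a long non-coding RNA whose span covers the Acod1 start, had 14, 12 and 13 counts in ControlA and 132, 107 and 134 in ApoE4, and 39, 29 and 41 counts in ControlB and 723 and 746 in ApoE3. Its mean level was 10.3-fold higher with nApoE4 and 22.0-fold higher with nApoE3, the reverse of the order seen for Acod1. Gm41236, a non-coding RNA 3380 bp past the Acod1 end, had at most 1 count per untreated sample, 198 to 266 in ApoE4 and 229 to 273 in ApoE3, at least 82.8-fold and 91.0-fold higher against a floor of 3 counts per library. Kctd12, at 64374 bp, was 2.90-fold and 1.28-fold higher. Whether the reads were counted by strand is not given in the sources used here, so reads of Acod1 and of the RNAs beside it cannot be told apart where they overlap. These neighbours were chosen by position after the values were seen and are given without a test.

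By shape over the 11 samples, the genes most like Acod1 in log2 CPM were Zc3h12c (Pearson r = 0.9995), Traf1, Ccl4, Msn and Gbp2 (r = 0.9988), among 7048 genes whose mean reached 32 CPM in 1 or more of the groups. Zc3h12c went from 34.7 to 349 CPM and from 34.9 to 284 CPM, and Traf1 from 1.08 to 203 CPM and from 1.16 to 124 CPM. The genes with the most opposite shape were St6gal1 (r = -0.997), Sash3, Nfam1, Epb41l2 and Tspan14. These values are a description without a p, since the samples form a treated and an untreated cluster and share their libraries. Among the 8 member enzymes of the cycle, r with Acod1 ran from -0.839 for Idh2 to 0.405 for Cs.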

How the data were processed

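RNA of 11 BV2 samples had been sequenced. The authors trimmed the reads, aligned them to GRCm38.p6 and counted them per gene, and deposited raw counts for each sample. The submitters' notes name FastQC 0.11.8, Trim Galore 0.5.0, HISAT2 2.1.0 and HTSeq 0.11.0. The annotation release, strand setting and overlap mode are not given in the sources used here. HTSeq's own rows for unassigned reads were left out (76.0 to 77.7% of tallied reads were on genes, 11.7 to 13.2% mapped to several places and 3.24 to 3.56% were ambiguous). A floor of 3 counts was used, which covers counting error only.

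The 9 members and all gene lists were chosen with earlier results of these data known. Groups and replicate numbers came from the sample labels. Treated samples were tested against the untreated ones of their experiment in edgeR 4.0.16 (R 4.3.3) with filterByExpr, TMM and the quasi-likelihood F test. The p-values were adjusted over all genes (Benjamini-Hochberg), with a threshold of 0.05. The difference of the responses was an interaction over 11 samples with 4 group means. The approximate standard error is the log2 fold change, without its sign, divided by the square root of F. CPM were scaled over all 11 samples, so fold changes, which come from each comparison's own fit, can differ slightly from ratios of mean CPM. The scripts were tested on simulated data. Lengths are merged exons of GENCODE vM21, matched for 26886 of 36529 genes, and promoter windows from RefSeq matched 8 of the 9 members (14 windows). In GENCODE vM21, which does not hold the RefSeq gene Gm41235 at the Acod1 start, no member shares exon bases with another gene, and none has a near-identical copy (98% over 75 bp) among other genes' transcripts. Among the other cycle genes, Suclg2 has a copy of 98.9% identity over 1302 bp, the pseudogene Gm15163, which is not in the count tables. Mdh1 shares 52 exon bases with Wdpcp and Idh3b 5 with Nop56, each on the opposite strand. Their part in the counts was not tested. Mmut is listed as Mut. Values of some genes are not reported here.

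Named were the 9 members, the other cycle genes, from each further list at most 4 genes per fragment with the largest change among those called at a mean of 1 CPM or more in some group, and the 5 genes most and least like Acod1. Pdk1 with nApoE3, Pcx, Pck2 and Gpt2 outside the fragment that named them, Acly, Clybl, Mcee and Acod1's neighbours were added after their values were seen. Replicate numbers are shared between groups, but same-numbered samples did not deviate together (correlations of -0.0982, -0.449 and -0.236 in the first experiment and -0.0903 and -0.0696 in the second), so no block was used. Alternatives were DESeq2 1.42.0, its size factors, total counts, other filters, 1 fit of all samples, the replicate block, thinning to the smallest library and leaving out each sample.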

Additional observations from a re-analysis of the deposited data

Results flagged for a closer look

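The genes below are those named by the rule above that passed the test of the difference of the responses, nApoE4 minus nApoE3. Of all genes tested, 28.3% passed it. Genes of the same lists that the rule did not name passed too, among them Pdha1 (log2 difference 0.242, edgeR adjusted p = 0.0313) and Dlat (0.217, adjusted p = 0.0295). In each case fragment and experiment cannot be told apart. Among the cycle genes, the log2 difference was 0.343 for Idh1 (edgeR adjusted p = 0.0163), 0.383 for Dld (adjusted p = 0.00599) and 0.197 for Dlst (adjusted p = 0.0261). The Dlst call was lost in 8 of 18 alternatives, among them each fit without a ControlB or an ApoE3 sample (adjusted p = 0.0545 to 0.104). The log2 difference of Acod1, 0.746, is given as a description, since it was known when the gene was chosen. That of Idh1, also a member, is a description too, since both contrasts behind it were known.

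In the surrounding pathways the response was the higher of the pair with nApoE4 for Sdhaf1 (log2 difference 1.02), Pck2 (0.958), Rab32 (0.87), Gpt2 (0.804), Aldh18a1 (0.798), Pdpr (0.768), Mmaa (0.501), Pdp1 (0.489), Slc13a3 (0.335) and Abcg2 (0.258). It was the lower for Pdk1 (-0.58), Pcx (-0.539), Slc25a12 (-0.506), Slc25a10 (-0.483) and Me2 (-0.323). A higher response is not always a rise, as Pdp1, Slc13a3 and Abcg2 fell under both fragments, and less with nApoE4. Aldh18a1, which makes the proline precursor from glutamate, rose with nApoE4 and fell with nApoE3, at 0.38 and -0.43 on the log2 scale, and Slc25a12, a mitochondrial aspartate-glutamate carrier, did the opposite, at -0.31 and 0.18. The adjusted p was 0.0445 for Slc13a3 and 0.0340 for Abcg2, and these calls were lost in 12 and 11 of 18 alternatives. The Pdpr call (adjusted p = 0.0279) was lost in 5 of 18, the replicate block and the fits without ApoE4 replicate 2, ControlB replicate 1 or either ApoE3 sample (adjusted p = 0.0554 to 0.0966). The Pdp1 call was lost in 2, the replicate block (0.0817) and the fit without ApoE3 replicate 2 (0.0516), and those of Mmaa (0.0547) and Me2 (0.0708) under the replicate block. No group held enough samples to look for single outlying values.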

How the results depend on the processing

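No member's log2 fold change with either fragment changed sign under any alternative tried. Acod1 stayed between 8.25 and 8.42 with nApoE4 and between 7.46 and 7.73 with nApoE3, and its difference between 0.603 and 0.855. The cycle genes outside the members that were called with nApoE4, 5 in number, were 9 under total counts (1 higher, 8 lower), 8 with all 11 samples in 1 fit (2 higher, 6 lower) and 3 under the replicate block (1 higher, 2 lower), and 4 to 7 when 1 sample was left out. With nApoE3 they went from 11 to 5 with all samples in 1 fit (1 higher, 4 lower), and were 8 to 11 with 1 sample left out. The fit of all samples estimates 1 spread per gene over both experiments, and its part in the drop was not tested. Without ApoE3 replicate 2, Idh3g, Suclg2 and Sucla2 lost their calls with nApoE3 (values above), and without ApoE4 replicate 3, Aco1 did with nApoE4 (adjusted p = 0.0594).

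Genes called over the whole table were 7142 to 8827 with nApoE4, 9121 to 9837 with nApoE3, 8949 to 10988 between the untreated groups and 3040 to 5250 for the difference when 1 sample was left out, and 2307 for the difference under the replicate block against 4331 without it. The numbers do not pair the samples, so this loss is not read as a weaker effect. Under total counts the split of the difference went from 2208 higher and 2123 lower to 2612 and 1793. The difference of Acod1 between untreated groups, close to 0, changed sign to 0.00469 with every gene of at least 1 count and to 0.00756 with all samples in 1 fit, and ran from -0.145 to 0.113 with 1 sample left out, while that of Sdhb ran from -0.116 to 0.0622. Each of the 8 member enzymes had at least 3039 counts in every sample, and thinning to the smallest library ended only the difference calls of Slc13a3 (adjusted p = 0.0714) and Abcg2 (0.127) among the calls recomputed. The causes of these changes with the processing were not tested.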
